A study of Homo sapiens with 36 samples.

Results

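The response of A549 cells to 6 h without glucose was followed in 6 of the 36 RNA-seq libraries of the series. A549 is a human lung adenocarcinoma line. The 6 libraries were taken by their titles, which name a control siRNA, 6 h, and either control medium or glucose deprivation. Both groups hold 3 biological replicates and carry the same non-targeting siRNA (siControl) at 100 nM. Per the labels, each transfected culture was trypsinised and divided between a pair of wells before treatment. One well was kept in pyruvate-free DMEM with 25 mM glucose and the other in the same medium without glucose (0 mM), both with 10% dialysed serum and 2 mM glutamine. Other cultures of the series were silenced for ATF4 or ATF6 or kept for 16 h, and enter here for comparison and for the estimate of spread. All libraries come from this single line, so p-values measure the spread between its cultures.

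Glucose feeds glycolysis and also the hexosamine pathway, whose product UDP-GlcNAc is needed to glycosylate proteins in the endoplasmic reticulum (ER). When proteins fold poorly in the ER, the membrane sensors PERK, IRE1 and ATF6 start the unfolded protein response, which raises chaperones, degradation factors and secretory machinery. PERK also phosphorylates the translation factor eIF2 alpha, which favours translation of the transcription factor ATF4. ATF4 then turns on genes of amino acid synthesis and transport, together with the regulators DDIT3 (CHOP), ATF3 and TRIB3. This second branch, the integrated stress response, can also be entered through other eIF2 alpha kinases.

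The 6 libraries held 41.0 to 65.0 M counts (M, mega), and the other usable libraries 39.4 to 78.7 M. Replicates differed by far more than counting noise, which gives a mean chi-square per gene of about 1. Between replicates the value ran from 56.1 to 92.4 in 25 mM glucose and from 114 to 176 in 0 mM. Replicates 1 and 3 gave 56.1 in 25 mM and 126 in 0 mM, and replicates 2 and 3 gave 114 in 0 mM. The epithelial keratins stood at 3169 to 5129 CPM (counts scaled to the depth of each library) for KRT8 and 1910 to 3064 CPM for KRT18, while the lung lineage markers SFTPC and NKX2-1 lay at or below 0.123 CPM. Of 15 markers of immune, endothelial, fibroblast and erythroid cells, 11 stayed below 1 CPM in all 6 libraries, and CD3E among them had no counts. The highest of the 15 were the fibroblast marker COL1A1, at 13.7 to 39.0 CPM, and the immune marker CD14, at 3.52 to 8.02 CPM. The summed level of the 15 was 27.9 to 39.2 CPM in 25 mM glucose and 21.5 to 50.1 CPM in 0 mM.

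The libraries labelled replicate 2 ran against the other pairs. HSPA5 encodes BiP, the main HSP70 chaperone of the ER and a standard readout of ER stress. It stood at 990 and 751 CPM in 25 mM glucose in replicates 1 and 3 and at 5304 and 4230 CPM in 0 mM. In the libraries labelled replicate 2 it stood at 3312 CPM in 25 mM and 675 CPM in 0 mM, so the order of the groups was turned round. The same inversion held for DDIT3, with 28.5 and 24.1 CPM in 25 mM glucose, 330 and 330 CPM in 0 mM, and 228 against 6.08 CPM in the pair labelled replicate 2. No library was relabelled. Each comparison was made with all 3 replicates and again without the libraries labelled replicate 2 at 6 h. Replicate 2 was left out because of the direction of its response, which is the quantity under test, so this selection is built into the p-values without it and is not corrected for.

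With all replicates, no gene passed an adjusted p of 0.05 in edgeR's quasi-likelihood test (0% of 19030 genes tested). At an unadjusted p under 0.05 there were 160, and DESeq2 called 3. Without replicate 2, 554 of 19644 genes passed (2.82%), 296 higher in 0 mM glucose (1.51%) and 258 lower (1.31%). Of those, 127 rose and 69 fell by at least 1 on the log2 scale, and 30 rose and 3 fell by at least 2. Rose and fell are used here for genes past the threshold without replicate 2, and fold changes are log2 values of 0 over 25 mM from that fit unless all replicates are named. The count of 554 leaves out replicate 2 at 6 h of all siRNAs and the failed siATF4 library, with 2.87 M counts and a highest correlation of 0.0297 with any other. It was 61 with only the siControl replicate 2 libraries left out, 138 with only the 4 libraries compared, 4 with the failed library kept, and 146 to 278 without any 1 of the 4 libraries. Protein-coding genes made up 510 of the 554 and lncRNAs 31, against 14973 and 3369 of the 19644 genes tested. A lower level in bulk RNA can come from fewer cells that express a gene or from less RNA per cell, which cannot be told apart here.

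Among the 554 genes the ratio of 0 over 25 mM within replicates 1 and 3 necessarily had the sign of the fold change. In the pair labelled replicate 2 only 5 genes (0.903%) shared that sign, against 27.1% of all 19005 genes with a ratio in every pair. The median log2 ratio of the 296 genes that rose was 0.91 in replicate 1, 0.91 in replicate 3 and -0.75 in replicate 2. For the 258 that fell it was -0.66, -0.83 and 0.63. Pairs of other siRNAs, which did not enter this contrast, gave 100% and 93.3% of the 554 genes with the same sign in siATF4 replicates 1 and 2 (75.5% and 60.9% of all genes). In siATF6 the shares were 99.6%, 1.26% and 98.6% in replicates 1, 2 and 3 (74.5%, 27.5% and 67.1% of all genes). The pair labelled replicate 2 was thus inverted in siControl and siATF6 and not in siATF4.

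**Figure D1:**
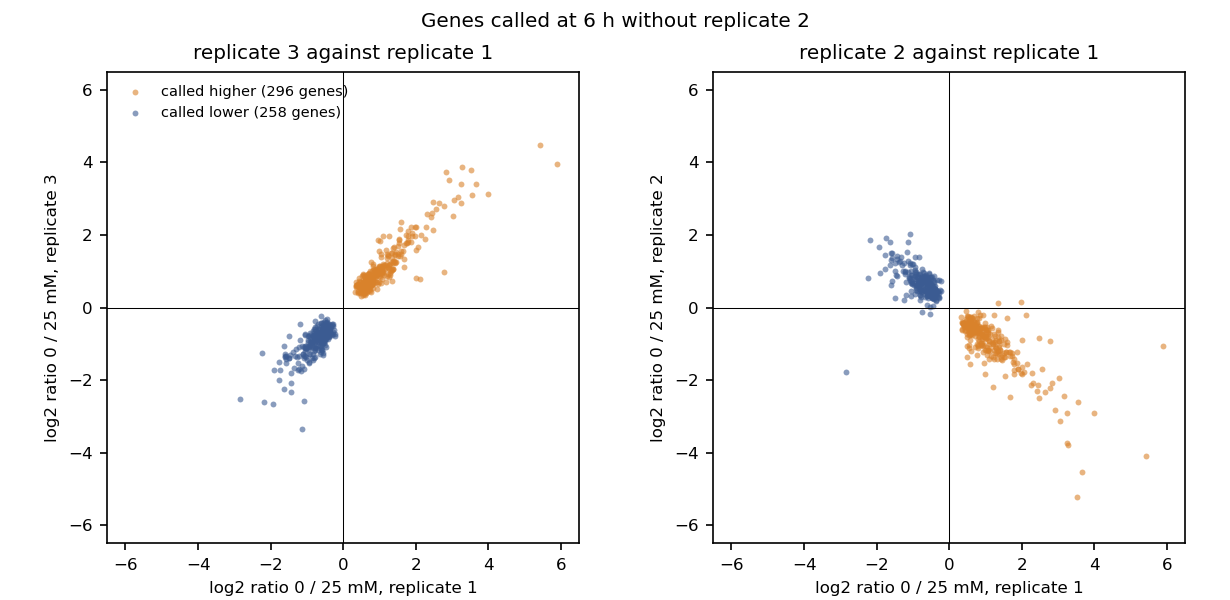
Log2 ratios of CPM (0 over 25 mM glucose) of the 554 genes called at 6 h without replicate 2, with replicate 1 on the x axis and replicate 3 (left) or replicate 2 (right) on the y axis. Orange points are the 296 genes called higher and blue points the 258 called lower; replicates 1 and 3 share a sign for each gene because they chose the genes, while 5 genes keep it in replicate 2.

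With all 3 replicates, 319 of 19030 genes were higher and 295 lower in every 0 mM library than in any 25 mM library, together 3.23%. Only 5 of the 554 genes were among them (0.903%). H4C14, a histone H4 gene, stood at 6.35, 7.98 and 7.58 CPM in 25 mM glucose and 16.3, 8.73 and 12.6 CPM in 0 mM (1.05, adjusted p = 0.0321; with all replicates 0.78). RTN4R, the receptor for the neurite outgrowth inhibitor Nogo, stood at 11.4, 7.66 and 10.6 CPM against 6.74, 7.04 and 5.07 CPM (-0.89, adjusted p = 0.0248; with all replicates -0.65). The nuclease subunit gene SLX1B (-0.66) and the unnamed loci AC068647.2 and AC022413.3 were the others, both loci below 1 CPM. SLX1B and H4C14 each have near-identical copies, so their counts are uncertain. None of the 5 passed the threshold with all replicates, where the lowest adjusted p of any gene was 0.903.

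Chaperones of the ER had the highest median fold change of the 36 gene lists examined. Of 23 genes for ER chaperones and folding enzymes, 16 rose (69.6%) and 7 did not pass the test, where 1.51% of all genes tested rose. The median fold change was 1.33 against -0.00 over all genes tested. All 23 fold changes were positive. The median log2 ratio of the list was 1.36 in replicate 1, 1.36 in replicate 3 and -1.17 in replicate 2. With all replicates the median was 0.54 and no member passed. Of the 23, 11 passed with only the siControl replicate 2 libraries left out, and 0 with the failed library kept.

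HSPA5 (chr9:125234853-125241343, minus strand, GRCh38) rose by 2.45 ± 0.18 (SE; adjusted p = 1.82e-08), with the levels given above for each library. Its fold change with all replicates was 1.01. DNAJB9, the ERdj4 co-chaperone of BiP, stood at 22.2, 117 and 11.0 CPM in 25 mM glucose (replicates 1, 2 and 3) and at 167, 16.5 and 126 CPM in 0 mM. Its fold change was the largest of the list and its levels in replicate 2 were inverted (3.15, adjusted p = 0.000128; with all replicates 1.05). CRELD2, an ER protein that is secreted under stress, stood at 24.4, 145 and 20.8 CPM against 220, 27.0 and 172 CPM. Here too replicates 1 and 3 were high without glucose and replicate 2 low (3.11, adjusted p = 1.23e-07; with all replicates 1.14).

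DNAJB11, a co-chaperone that brings unfolded clients to BiP, had the smallest p of the list. Its levels were 54.4, 154 and 50.7 CPM in 25 mM glucose and 189, 52.3 and 184 CPM in 0 mM (1.82 ± 0.10, adjusted p = 2.49e-10). A share of 23.2% of its exon length also belongs to other annotated genes, and the reads are not stranded. HYOU1, the nucleotide exchange factor GRP170, stood at 108, 418 and 81.9 CPM against 589, 95.3 and 494 CPM (2.51, adjusted p = 1.85e-07). SDF2L1 (2.80), a component of the DNAJB11 complex, and MANF (2.43), a secreted factor that binds BiP, rose as well. FICD, the enzyme that AMPylates BiP, stood at 12.2, 45.1 and 7.07 CPM against 68.0, 7.95 and 53.7 CPM (2.66, adjusted p = 7.63e-05).

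Other members of the list had fold changes of varied size. HSP90B1, the ER HSP90 called GRP94, stood at 669, 1453 and 523 CPM in 25 mM glucose and 1749, 645 and 1675 CPM in 0 mM (1.52, adjusted p = 1.56e-05). The lectin chaperone CALR rose by 1.27, and its membrane-bound relative CANX had a fold change of 0.67 that did not pass (adjusted p = 0.162). Disulfide isomerases followed the order PDIA4 (1.77), PDIA3 (0.96) and PDIA6 (0.88), while P4HB, the founding member, had 0.54 (adjusted p = 0.15). Of the oxidases that recharge them, ERO1B rose by 1.33 and ERO1A had 0.22 (adjusted p = 0.85). DNAJC3, an inhibitor of PERK-type kinases also known as p58IPK, rose by 2.11.

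**Figure D2:**
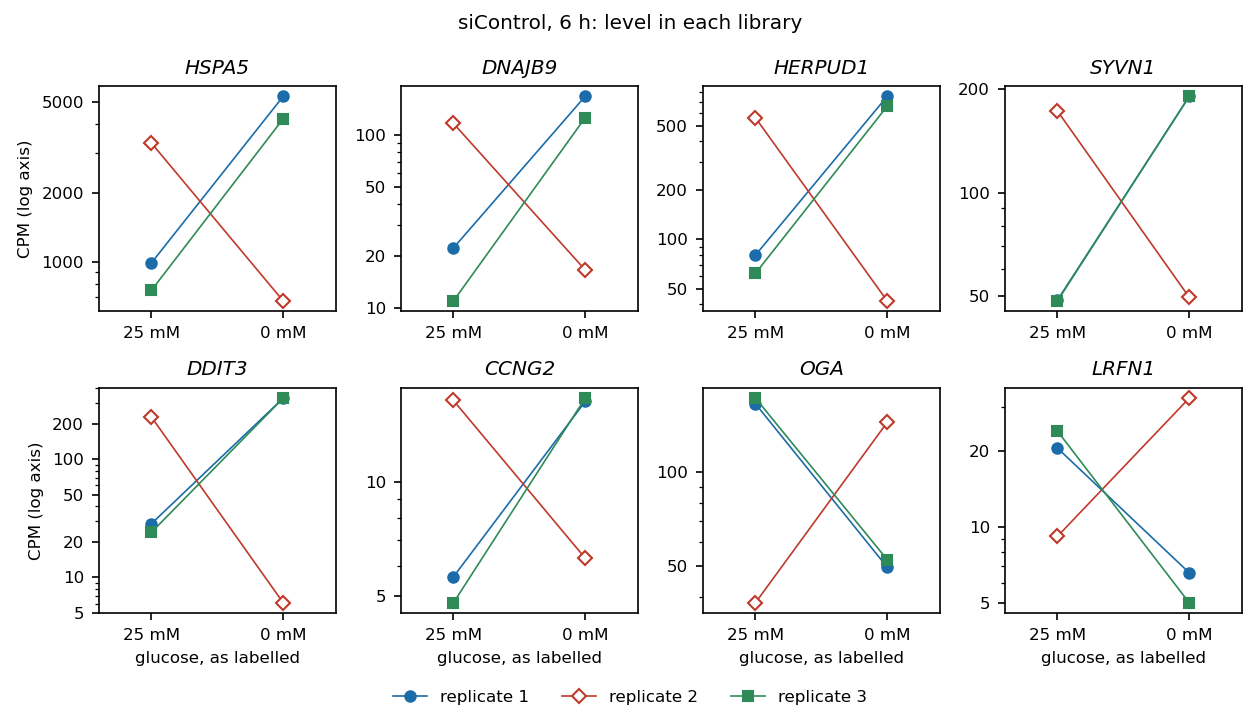
CPM of 8 genes in the 6 siControl libraries at 6 h on log axes, with lines joining the 25 mM and 0 mM library of a replicate. Filled circles and squares are replicates 1 and 3 and open diamonds replicate 2; in HSPA5, DNAJB9, HERPUD1, SYVN1, DDIT3 and CCNG2 the 0 mM library is the higher one in replicates 1 and 3 and the lower one in replicate 2, and in OGA and LRFN1 the reverse holds.

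Promoters of these genes are known to hold ER stress response elements, at which ATF6 acts with the CCAAT-binding factor NF-Y. The element ERSE was searched as CCAAT and CCACG with any 9 bases between them, and ERSE-II as ATTGG and CCACG with any 1 base between them. Both were sought on both strands in the 250 bases before the start of each gene in RefSeq (GRCh38.p14). ERSE was found in 22 of 27305 promoters (0.0806%) and ERSE-II in 14 (0.0513%). Promoters were matched by symbol for 12404 genes tested, of which 227 rose (1.83%) and 201 fell. ERSE was found in 11 of the 227 genes that rose (4.85%), in 0 of the 201 that fell and in 17 of all 12404 (0.137%). Read the other way, 11 of these 17 genes rose (64.7%). ERSE-II was found in 4 of the 227 (1.76%), in 0 of the 201 and in 11 of all 12404 (0.0887%). A match describes the letters of a promoter, not a bound site.

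The ERSE matches of the 11 genes that rose are shown to compare their spacers, written in the direction of the motif with its fixed letters in capitals. Each name is followed by the position on GRCh38.p14, where the strand is that of the gene.
HSPA5, chr9:125241391-125241409, minus: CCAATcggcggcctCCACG
HSP90B1, chr12:103930216-103930234, plus: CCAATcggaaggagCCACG
HSP90B1, chr12:103930321-103930339, plus: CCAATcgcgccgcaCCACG
CALR, chr19:12938384-12938402, plus: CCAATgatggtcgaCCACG
CRELD2, chr22:49918554-49918572, plus: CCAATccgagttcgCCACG
ALG12, chr22:49918554-49918572, minus: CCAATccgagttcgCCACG
SERP1, chr3:150546710-150546728, minus: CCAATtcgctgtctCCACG
EIF2A, chr3:150546710-150546728, plus: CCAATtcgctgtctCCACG
FICD, chr12:108515123-108515141, plus: CCAATgggagtggcCCACG
ERO1B, chr1:236282183-236282201, minus: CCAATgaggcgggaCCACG
XBP1, chr22:28800603-28800621, minus: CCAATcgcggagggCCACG
TRIM5, chr11:5685115-5685133, minus: CCAATggcatttctCCACG

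These 12 matches lie at 10 places, because 2 places are shared by a pair of genes that run away from each other. One lies between CRELD2 and ALG12, an ER mannosyltransferase that builds the glycan donor. ALG12 rose by 0.75 (adjusted p = 0.000199) where CRELD2 rose by 3.11, and 42.1% of the exon length of ALG12 also belongs to other genes, CRELD2 among them. The other lies between SERP1, which stabilises membrane proteins during translocation, and the translation factor gene EIF2A. SERP1 stood at 125, 188 and 106 CPM in 25 mM glucose and 270, 113 and 195 CPM in 0 mM (1.01, adjusted p = 0.00218). EIF2A stood at 64.6, 86.1 and 70.8 CPM against 93.2, 61.3 and 108 CPM (0.57, adjusted p = 0.00764). TRIM5, a restriction factor of retroviruses, is no ER gene and rose by 1.05 (adjusted p = 0.00203).

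The genes that rose with ERSE-II were HERPUD1, SDF2L1, HYOU1 and RAD9A, a subunit of the checkpoint clamp (1.20, adjusted p = 0.0044). The promoters of HYOU1 and HERPUD1 are shown because HYOU1 holds the motif at 2 places and HERPUD1 had the smallest p of all genes tested. Capitals mark ERSE-II and, in HERPUD1, also, as the first match from the left, GTTGCATCA, which reads on the other strand as CARE (TGATGNAAN), a motif bound by ATF4 with CEBP factors. In HYOU1 both matches read on the other strand of the gene.
HYOU1, chr11:119057206-119057455, minus: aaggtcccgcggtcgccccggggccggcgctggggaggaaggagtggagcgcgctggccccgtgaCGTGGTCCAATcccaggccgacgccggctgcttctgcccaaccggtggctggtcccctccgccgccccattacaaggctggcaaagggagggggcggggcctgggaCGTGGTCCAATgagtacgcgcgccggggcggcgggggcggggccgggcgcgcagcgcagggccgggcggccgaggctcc
HERPUD1, chr16:56931892-56932141, plus: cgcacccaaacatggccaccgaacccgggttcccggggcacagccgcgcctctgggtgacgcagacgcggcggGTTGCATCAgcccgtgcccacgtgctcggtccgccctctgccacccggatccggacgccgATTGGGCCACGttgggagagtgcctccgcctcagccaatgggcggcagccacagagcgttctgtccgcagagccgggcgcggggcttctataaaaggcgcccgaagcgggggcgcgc
The CARE motif was found in 1.76% of genes that rose, 1.49% of those that fell and 1.6% of all genes matched. Among lists described below it was found in 3 of 19 stress regulators downstream of ATF4 (15.8%) and 3 of 12 amino acid synthesis genes (25%). Of the ER chaperones it was found in 0 of 22.

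Degradation and signalling genes of the ER rose alongside the chaperones. Of 24 genes that dispose of misfolded ER proteins or signal their presence, 11 rose (45.8%) and 13 did not pass. Over all genes tested 1.51% rose. The median fold change of the list was 0.82. Replicates 1, 2 and 3 gave list medians of 0.72, -0.71 and 0.84. HERPUD1, a membrane protein that organises the retrotranslocation complex, stood at 80.1, 559 and 61.9 CPM in 25 mM glucose and 757, 41.9 and 658 CPM in 0 mM. It had the smallest p of the list (3.32 ± 0.16, adjusted p = 4.62e-11; with all replicates 1.06). The ubiquitin ligase SYVN1 (HRD1) stood at 48.7, 173 and 48.5 CPM against 190, 49.6 and 190 CPM, nearly the same in replicates 1 and 3 (1.97 ± 0.11, adjusted p = 1.62e-10).

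Further parts of the same ligase complex rose with SYVN1. Its adaptor SEL1L rose by 1.75, the derlins DERL2 and DERL3 by 1.21 and 3.87, the conjugating enzyme UBE2J1 by 1.02 and the lectin EDEM1, which picks out misfolded glycoproteins, by 1.49. DERL3 was scarce, with at most 0.833 CPM in 25 mM glucose and 2.02 CPM in any library. SELENOK (1.81) and SELENOS (1.03), selenoproteins of the complex, rose as well. VCP, the ATPase that pulls substrates out, had 0.28 (adjusted p = 0.273). Of the 24, 8 passed with only the siControl replicate 2 libraries left out, and 0 with all replicates or with the failed library kept.

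The sensors differed among themselves. EIF2AK3, which encodes PERK, stood at 18.1, 50.9 and 16.9 CPM in 25 mM glucose and 66.3, 17.7 and 59.5 CPM in 0 mM (1.85, adjusted p = 6.02e-06). ERN1, which encodes IRE1, had 1.10 and did not pass (adjusted p = 0.115). ATF6 stood at 56.0, 56.9 and 53.7 CPM against 59.8, 43.0 and 63.0 CPM, overlapping between media (0.16, adjusted p = 0.909). XBP1, whose mRNA is spliced by IRE1, rose by 0.64 (adjusted p = 0.0309). PPP1R15A (GADD34), which brings phosphatase to eIF2 alpha, stood at 102, 122 and 74.2 CPM against 409, 34.5 and 224 CPM (1.85, adjusted p = 0.00728).

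Of 31 genes for translocation into the ER, glycosylation and secretory transport, 13 rose (41.9%) and 18 did not pass. Over all genes tested 1.51% rose. The median was 0.51 and all 31 fold changes were positive. SEC24D, a cargo adaptor of COPII vesicles, stood at 29.2, 83.1 and 22.5 CPM in 25 mM glucose and 101, 31.0 and 88.9 CPM in 0 mM (1.88, adjusted p = 2.13e-05). It stood apart from the rest of the list, in which the next were the oligosaccharyltransferase subunit OSTC (0.87) and the translocon-associated SSR3 (0.80) and SSR1 (0.79). The channel subunit SEC61A1 rose by 0.65. The count of 13 fell to 1 with only the siControl replicate 2 libraries left out, to 2 with only the 4 libraries compared or without 25 mM replicate 3, to 5 and 8 without 0 mM replicates 1 and 3, to 7 without the filter on low counts, and to 0 with all replicates or with the failed library kept.

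Among genes downstream of ATF4 some regulators rose, and most did not pass the test. ATF4 itself stood at 372, 349 and 303 CPM in 25 mM glucose and 451, 206 and 409 CPM in 0 mM (0.35 ± 0.17, adjusted p = 0.411). Of 23 stress regulators downstream of it, 5 rose (21.7%) and 18 did not pass, where 1.51% of all genes tested rose. The median fold change was 0.58. DDIT3, or CHOP, a factor that favours cell death under long stress, rose most (3.65 ± 0.24, adjusted p = 2.91e-09; with all replicates 1.25). A share of 39.6% of its exon length also belongs to other genes, among them MARS and MBD6 on the other strand.

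ATF3, a related factor, stood at 21.8, 37.1 and 20.1 CPM against 69.8, 6.63 and 66.7 CPM (1.71, adjusted p = 0.00121). TRIB3, the pseudokinase that dampens ATF4, stood at 388, 420 and 327 CPM against 895, 92.8 and 601 CPM (1.07, adjusted p = 0.00731). CEBPG, a dimer partner of ATF4, rose by 0.57. Among those that did not pass, CHAC1, which degrades glutathione, stood at 31.5, 36.5 and 26.2 CPM in 25 mM glucose and 52.7, 4.27 and 32.5 CPM in 0 mM. Here the 0 mM library labelled replicate 2 was far lower than the other 5, as it was for the peptide hormone ADM2, at 11.8, 11.7 and 10.5 CPM against 18.2, 1.67 and 15.05 CPM. The list median was 0.60, -1.21 and 0.54 in replicates 1, 2 and 3, so the ratio of replicate 2 was larger in size than those of the others. Of the 5 called regulators, 3 passed without 0 mM replicate 1 and 2 without 25 mM replicate 3 or with only the 4 libraries compared. None passed with only the siControl replicate 2 libraries left out (DDIT3 adjusted p = 0.0787), with all replicates or with the failed library kept.

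Few amino acid genes passed the test, as did 2.82% of all genes tested. Of 17 enzymes that make amino acids or carry one-carbon units, 1 rose and 16 did not pass, with a median of 0.21. The one that rose was MTHFD2, the mitochondrial folate enzyme, at 580, 575 and 490 CPM in 25 mM glucose and 807, 221 and 735 CPM in 0 mM (0.53, adjusted p = 0.0177). A share of 33.2% of its exon length also belongs to genes on the other strand. MTHFD2 did not pass without 0 mM replicate 1, 0 mM replicate 3 or 25 mM replicate 3 (adjusted p 0.159, 0.0529 and 0.351), nor with only the siControl replicate 2 libraries left out, only the 4 libraries compared or no filter on low counts. ASNS, the asparagine synthetase, had 0.41 (adjusted p = 0.325), though 44.6% of its exon length also belongs to a gene on the same strand. The serine synthesis enzymes PSAT1 and PHGDH had 0.18 and 0.04. None of 11 amino acid transporters passed, with a median of 0.06, and SLC1A4, an alanine and serine carrier, had -0.33 (adjusted p = 0.211). Of 20 cytosolic tRNA synthetases, WARS1 (0.82, adjusted p = 1.73e-05) and AARS1 (0.67, adjusted p = 0.0111) rose and 18 did not pass. Neither passed with only the siControl replicate 2 libraries left out or with only the 4 libraries compared, AARS1 also failed without 0 mM replicate 1 or 25 mM replicate 3, and DESeq2 called 6 of the 20.

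The hexosamine pathway and the cycling of O-GlcNAc, the sugar that marks nuclear and cytosolic proteins, held changes in both directions. Of 8 genes, 2 rose, 1 fell and 5 did not pass, so 37.5% were called against 2.82% of all genes tested. GFPT1, the rate-limiting enzyme of the pathway, stood at 126, 262 and 121 CPM in 25 mM glucose and 361, 101 and 324 CPM in 0 mM (1.47 ± 0.17, adjusted p = 8.99e-06). PGM3, a mutase further down, rose by 0.91 (adjusted p = 0.0269). It did not pass without 0 mM replicate 1, 0 mM replicate 3 or 25 mM replicate 3 (0.242, 0.0511 and 0.427), nor with only the 4 libraries compared (0.136). OGA (chr10:101784443-101818465), the enzyme that removes O-GlcNAc, stood at 166, 38.3 and 173 CPM against 49.7, 144 and 52.5 CPM. It was low in replicates 1 and 3 without glucose and high in replicate 2 (-1.73 ± 0.18, adjusted p = 4.98e-06; with all replicates -0.61). OGT, which attaches the sugar, stood at 156, 162 and 177 CPM against 176, 132 and 184 CPM, with overlapping groups (0.12, adjusted p = 0.965). With only the siControl replicate 2 libraries left out, none of GFPT1 (adjusted p = 0.0524), PGM3 (0.271) and OGA (0.0726) passed, and none of the 8 passed with all replicates or with the failed library kept.

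**Figure D3:**
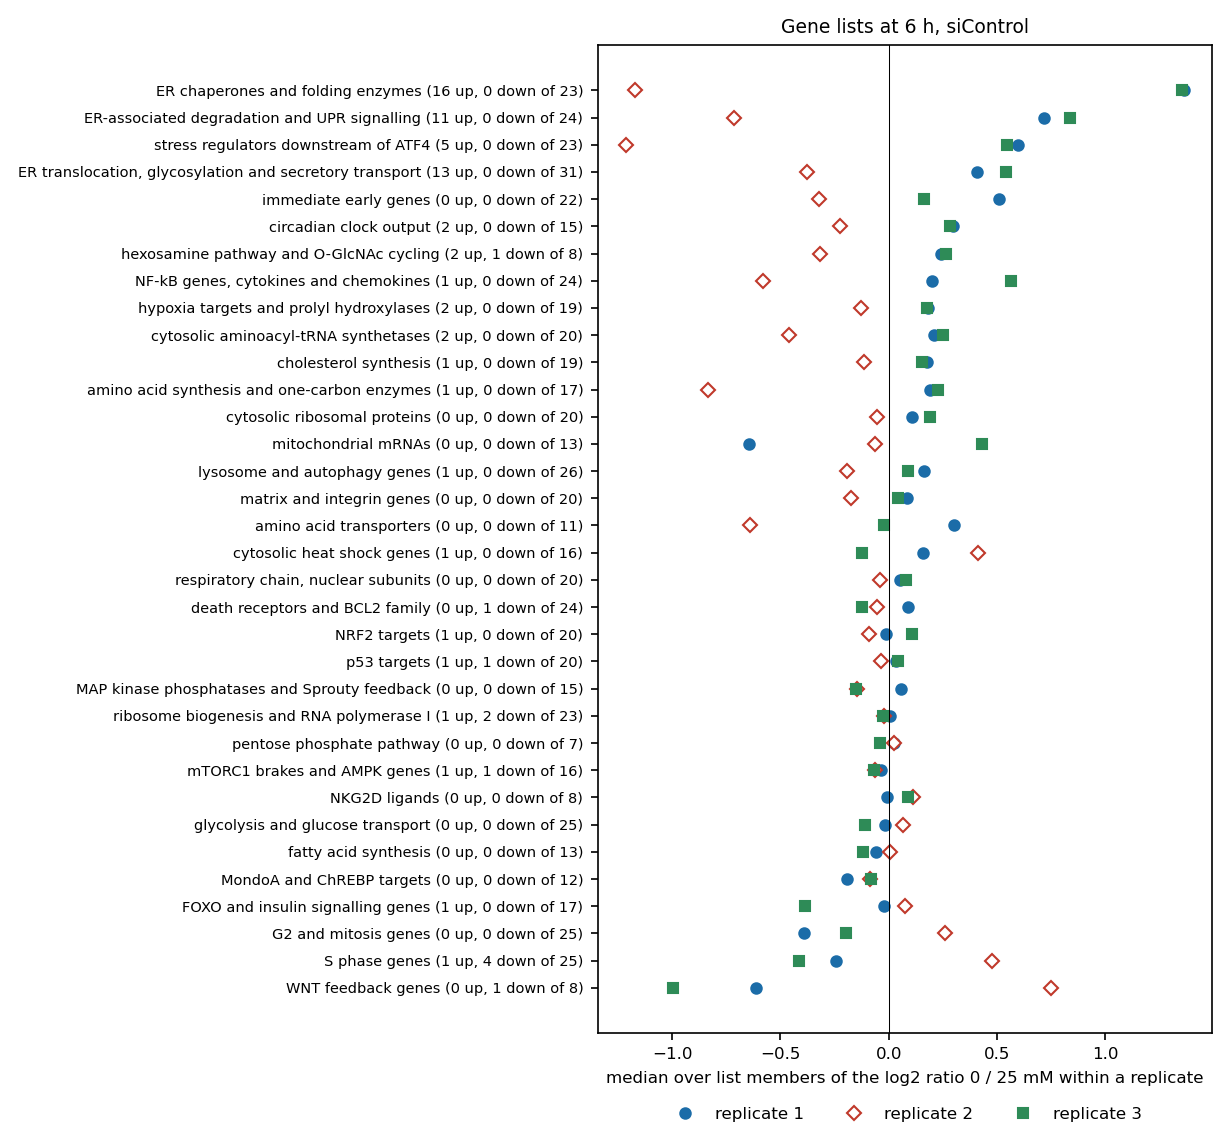
Median over the members of each gene list of the log2 ratio of CPM, 0 over 25 mM glucose, within replicate 1 (circles), replicate 2 (open diamonds) and replicate 3 (squares), with the number of members called at 6 h without replicate 2 in brackets. The ER chaperones have medians of 1.36 in replicates 1 and 3 and -1.17 in replicate 2.

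Genes of sugar use itself did not pass the test. Over all genes tested 2.82% passed, so the absence of calls in lists this small says little about them. None of 25 genes for glycolysis and glucose transport passed (median -0.10), none of 7 of the pentose phosphate pathway (-0.03) and none of 12 targets of the glucose sensors MondoA and ChREBP (-0.17). The glucose transporter SLC2A1 stood at 252, 395 and 346 CPM in 25 mM glucose and 326, 283 and 438 CPM in 0 mM, with groups that overlapped (0.35, adjusted p = 0.674). TXNIP, a well-known glucose-responsive MondoA target, was barely expressed, at 0.521, 0.049 and 0.138 CPM against 0.0308, 0.183 and 0.0476 CPM. ARRDC4, another such target, lay between 1.96 and 2.41 CPM in all 6 libraries.

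Fold changes of the cell cycle lists were mostly negative. Of 25 S phase genes, 4 fell, 1 rose and 20 did not pass, so 20% were called against 2.82% of all genes tested. The median was -0.32, with 1 positive fold change. E2F2, a transcription factor of S phase entry, stood at 17.1, 6.96 and 20.6 CPM in 25 mM glucose and 7.79, 17.0 and 6.67 CPM in 0 mM (-1.38, adjusted p = 0.000218). The helicase subunits MCM5 (-0.63) and MCM7 (-0.59) and the GINS subunit GINS1 (-0.64) were the others that fell. CDC6, which loads that helicase, went the other way, with 94.0, 130 and 84.1 CPM against 210, 91.1 and 175 CPM (1.11 ± 0.27, adjusted p = 0.024). Of 25 genes of G2 and mitosis none passed, although all 25 fold changes were negative (median -0.29), and the cyclin CCNA2 came closest (-0.68, adjusted p = 0.0501). These calls turned on single libraries: 1 S phase gene fell and CDC6 did not pass when any 1 of the 4 libraries was left out (CDC6 adjusted p 0.0629 to 0.274), and no S phase gene passed with only the siControl replicate 2 libraries left out, with all replicates or with the failed library kept.

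Single genes outside the ER and ATF4 lists rose as well, where 1.51% of all genes tested rose. Of the genes with at least 5 CPM, the largest rise was in HSPA6, an inducible HSP70 with a near-identical copy, HSPA7. It stood at 0.984, 1.72 and 0.846 CPM in 25 mM glucose and 61.0, 0.800 and 13.8 CPM in 0 mM, so that the 0 mM libraries of replicates 1 and 3 were far apart (5.36 ± 1.31, adjusted p = 0.029). Without 0 mM replicate 1 it was 3.91 (adjusted p = 0.2). It also failed without either 25 mM library (0.22 and 0.313), with no filter (0.0824), with only the siControl replicate 2 libraries left out (0.229) and with only the 4 libraries compared (0.163). It was the only 1 of 16 cytosolic heat shock genes to pass. STARD4, a cholesterol carrier, stood at 18.1, 72.3 and 22.0 CPM against 87.3, 20.8 and 103 CPM (2.24, adjusted p = 0.000462), the only 1 of 19 cholesterol genes. ZNF165 (2.83), a zinc finger gene, the pseudogene MSTO2P (2.80) and TMEM50B (1.94), a small ER membrane protein, rose too.

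Other lists gave at most 3 called members each, where 2.82% of all genes tested passed, so such counts say little about a list. HMOX1, heme oxygenase, stood at 121, 98.5 and 157 CPM in 25 mM glucose and 527, 85.5 and 271 CPM in 0 mM (1.52, adjusted p = 0.0414), 1 of 20 NRF2 targets. The clock and hypoxia gene BHLHE40 rose by 0.96, as did the clock gene PER1, and VEGFA, the angiogenic growth factor, by 0.74. CCNG2, a FOXO target that restrains the cell cycle, rose by 1.66 and WIPI1, an autophagy gene, by 1.30. GADD45A rose by 0.97 and SESN1 fell by 0.80 on the log2 scale among 20 p53 targets, and LIF was the 1 of 24 NF-kB and cytokine genes that rose (0.64). UBTF and RRS1 fell and GNL3 rose among 23 genes of ribosome biogenesis, BAK1 fell among 24 of cell death (-0.52, adjusted p = 0.0451) and ZNRF3 among 8 of WNT feedback (-0.72). PRKAG2, a subunit of the energy sensor AMPK, rose by 0.55. Of these 15 genes, from HMOX1 to PRKAG2, none passed with only the siControl replicate 2 libraries left out, with all replicates or with the failed library kept, 4 passed with only the 4 libraries compared, and 14, all but BHLHE40, were lost on leaving out at least 1 of the 4 libraries. HMOX1 went to 0.96 (adjusted p = 0.419) without 0 mM replicate 1. BAK1 was also lost under both other scalings (adjusted p = 0.0517 and 0.0528).

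EGR1, an immediate early gene, had a large fold change with a wide error. It stood at 0.868, 4.15 and 1.12 CPM in 25 mM glucose and 14.3, 1.37 and 10.5 CPM in 0 mM (3.64 ± 1.16, adjusted p = 0.121), and none of the 22 passed. Nor did any of 15 MAP kinase phosphatase and Sprouty genes (median 0.00), 13 genes of fatty acid synthesis (-0.13), 20 cytosolic ribosomal proteins (0.15), 13 mitochondrial mRNAs (0.08), 20 nuclear subunits of the respiratory chain (0.04), 20 matrix and integrin genes (0.07) or 8 NKG2D ligands (-0.04). As 2.82% of all genes tested passed, the absence of calls in these small lists says little about them. The mitochondrial mRNAs had list medians of -0.65, -0.06 and 0.43 in replicates 1, 2 and 3.

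The genes that fell furthest were of other kinds. LRFN1, a synaptic adhesion gene, stood at 20.6, 9.20 and 24.0 CPM in 25 mM glucose and 6.61, 32.5 and 5.02 CPM in 0 mM (-1.94 ± 0.19, adjusted p = 1.26e-06), and 20.3% of its exon length also belongs to a neighbour. After OGA came P2RY11, a purine receptor (-1.65), though 59.2% of its exon length lies in other genes. RHOV, a small GTPase, followed (-1.53), with PAQR4 (-1.48; 41.5% of exon length shared with PKMYT1), the adaptor GRB7 (-1.48) and the Notch feedback gene NRARP (-1.44). E2F8, an atypical E2F repressor, stood at 9.24, 5.07 and 13.1 CPM against 3.28, 10.2 and 5.02 CPM (-1.43, adjusted p = 0.0132). LINGO1 (-1.41), NEURL1B (-1.38), E2F2 and AC018629.1 (-1.33) completed the 12. Of these, 1 (LINGO1) passed with only the siControl replicate 2 libraries left out and 5 with only the 4 libraries compared, while RHOV, GRB7, NRARP, E2F8 and NEURL1B were lost on leaving out at least 1 of the 4 libraries.

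The 16 h libraries of siControl served to ask how much of the early response lasted. There 5834 of 19644 genes passed (29.7%), 2953 higher (15%) and 2881 lower (14.7%); with all replicates in the fit the share was 28.2%, with 14.5% higher and 13.8% lower. Of the 296 genes that rose at 6 h, 271 had also risen at 16 h, which is 91.6% of the 6 h genes and 9.18% of the 16 h genes. Of the 258 that fell, 188 had also fallen, 72.9% and 6.53%. None was called in opposite directions. The median fold change of the genes that rose was 0.93 at 6 h and 1.13 at 16 h, and of those that fell -0.76 and -0.64.

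The difference between the fold changes at 16 and 6 h was tested as an interaction. It passed for 883 genes without 6 h replicate 2 (4.5% of 19644), 424 with a higher (2.16%) and 459 with a lower value at 16 h (2.34%). With all replicates it passed for 1641 (8.62% of 19030), 4.09% higher and 4.53% lower. Of the 296 genes that rose at 6 h, 55 had a larger fold change at 16 h and 7 a lower one, 4 of them of opposite sign. Of the 258 that fell, 18 had a more negative fold change at 16 h and 15 a higher one, 10 of them of opposite sign. A larger fold change need not mean a higher level in 0 mM glucose. DDIT3 stood there at 330 and 330 CPM at 6 h in replicates 1 and 3 and at 252 to 281 CPM at 16 h. In 25 mM it stood at 28.5 and 24.1 CPM at 6 h and at 5.04 to 5.41 CPM at 16 h.

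Among chaperones the later response was larger for 11 of 23 genes, where 2.16% of all genes tested passed with a higher value at 16 h. HSPA5 reached 10805, 10580 and 9872 CPM at 16 h in 0 mM glucose, against 699 to 715 CPM in 25 mM, a fold change larger by 1.42 than at 6 h (adjusted p = 0.000345). With only the siControl replicate 2 libraries left out the adjusted p of this difference was 0.222, and with the failed library kept it was 1. DNAJB9 stood at 169, 100 and 96.6 CPM against 17.2, 11.1 and 11.3 CPM, and its fold changes at the 2 times differed by 0.06 (adjusted p = 0.983). SDF2L1 (-0.03), FICD (0.03) and MANF (0.10) had differences as small, none past the threshold.

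The stress regulators downstream of ATF4 differed in another way. The interaction passed for 11 of 23, all with a higher fold change at 16 h, and for 11 of 17 amino acid synthesis genes, 10 higher and 1 lower. Over all genes tested it passed for 4.5%. In replicates 1 and 3 at 6 h ADM2 stood at 11.8 and 10.5 CPM in 25 mM glucose and at 18.2 and 15.05 CPM in 0 mM. The libraries labelled replicate 2 held 11.7 CPM in 25 mM and 1.67 CPM in 0 mM. At 16 h it stood at 0.420, 1.15 and 0.434 CPM in 25 mM and 18.4, 14.8 and 20.5 CPM in 0 mM. With replicate 2 left out of both media, the levels in 0 mM overlapped between the times and those in 25 mM did not (difference of fold changes 4.17, adjusted p = 4.71e-06).

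CHAC1 in 25 mM glucose stood at 31.5 and 26.2 CPM at 6 h in replicates 1 and 3, and at 1.77 to 2.24 CPM at 16 h. The libraries labelled replicate 2 held 36.5 CPM in 25 mM and 4.27 CPM in 0 mM at 6 h. With replicate 2 left out at 6 h, the fold changes of CHAC1 at the 2 times differed by 3.67 (adjusted p = 0.000127). ATF4 stood at 372 and 303 CPM in replicates 1 and 3 and at 145 to 180 CPM at 16 h in 25 mM. Over the 23 stress regulators the median log2 ratio of 16 over 6 h, replicate 2 left out, was -1.20 in 25 mM glucose and 0.04 in 0 mM. For the amino acid synthesis genes the medians were -0.67 and 0.31, and for the 11 transporters -0.76 and 0.00. The times were separate cultures, so time and culture cannot be told apart in these ratios.

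In S phase genes the levels in 0 mM differed between the times instead. Of 25, 22 had fallen by 16 h (14.7% of all genes tested) and 22 had a lower fold change than at 6 h (2.34% of all). Median log2 ratios of 16 over 6 h were 0.12 in 25 mM glucose and -1.43 in 0 mM. MCM5 stood at 142, 82.4 and 157 CPM in 25 mM glucose and 98.0, 119 and 95.9 CPM in 0 mM at 6 h, and at 142 to 164 and 26.5 to 35.9 CPM at 16 h. CDC6, higher in 0 mM at 6 h, stood at 59.9 to 113 CPM there at 16 h against 92.8 to 126 CPM in 25 mM (-0.46, adjusted p = 0.12). Its fold changes differed by -1.58 (adjusted p = 0.00855; 0.06 without 6 h 25 mM replicate 3 and 0.119 with all replicates).

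OGA fell at 6 h and did not pass the test at 16 h. At 16 h it stood at 127, 107 and 118 CPM in 25 mM glucose and 125, 117 and 110 CPM in 0 mM, with groups that overlapped (0.00, adjusted p = 0.997). The difference from the fold change at 6 h was 1.73 (adjusted p = 7.69e-05 without 6 h replicate 2, 0.0681 with only the siControl replicate 2 libraries left out and 0.64 with all replicates). ZNF165 rose at both times, but by 2.83 at 6 h and 1.47 at 16 h (difference -1.36, adjusted p = 0.0385). This difference did not pass in 8 of 10 fits that left out 1 library each, with no filter (adjusted p = 0.19), with only the libraries compared (0.0512), with only the siControl replicate 2 libraries left out (0.21) or with all replicates (0.717). PERK mRNA, EIF2AK3, rose by 1.85 and 1.35, a difference that did not pass (-0.49, adjusted p = 0.351). GFPT1 rose by 1.47 and 2.07 (difference 0.59, adjusted p = 0.127).

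**Figure D4:**
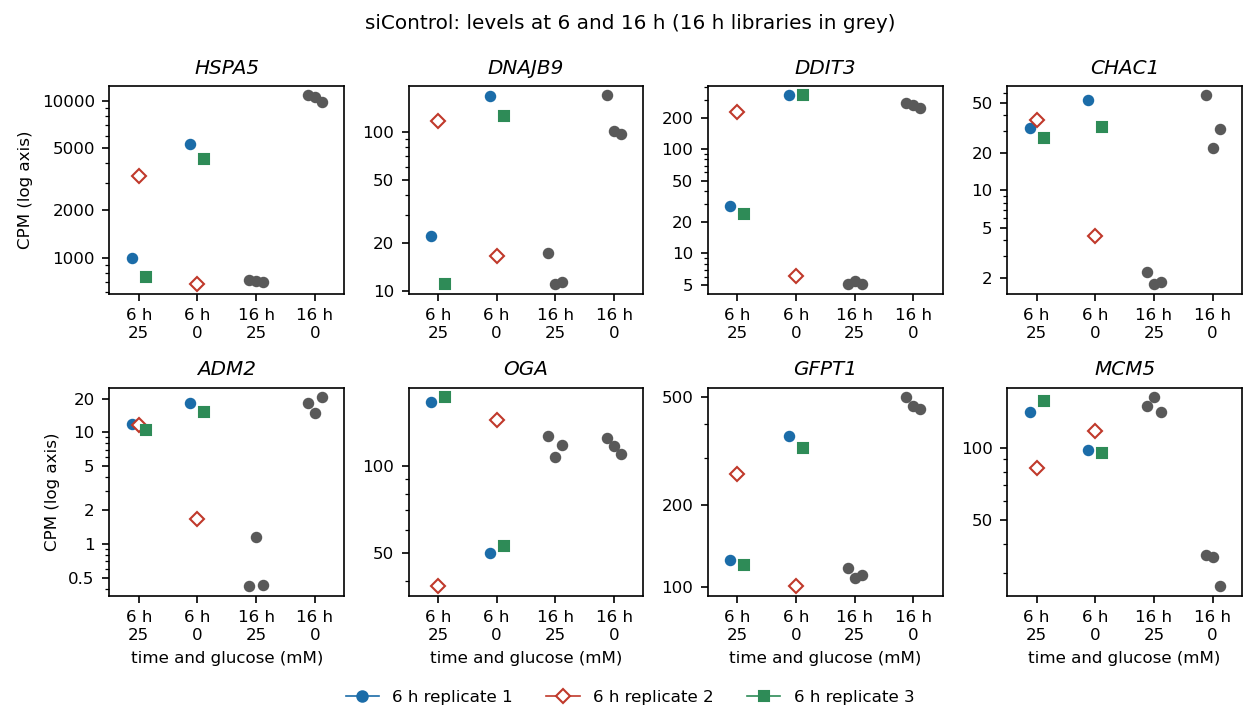
CPM of 8 genes in the siControl libraries at 6 h (colours and shapes by replicate) and 16 h (grey), in 25 and 0 mM glucose, on log axes. ADM2 and CHAC1 in 25 mM glucose are far lower at 16 h than at 6 h, and low also in the 6 h 0 mM library labelled replicate 2, OGA is low in 0 mM at 6 h in replicates 1 and 3 and level at 16 h, and MCM5 is lowest in 0 mM at 16 h.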

How the data were processed

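Poly(A) RNA-seq libraries, not stranded and read in pairs, were deposited as a table of expected counts for 60662 gene identifiers. Per the submitters' processing notes the authors used fastp, STAR and RSEM on GRCh38; versions and the annotation release are not given in the sources used here. Expected counts were rounded to whole numbers. Genes were kept by edgeR's filterByExpr (minimum count 10, minimum total 15), scaled by TMM and tested with edgeR 4.0.16 (R 4.3.3) in its quasi-likelihood F test with robust dispersion, and p-values were adjusted by Benjamini-Hochberg over all genes tested, with a threshold of 0.05.

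The fit with all replicates held 35 libraries, leaving out siATF4 6 h 0 mM replicate 3 for its depth and its low correlation. It had 2.87 M counts and correlated with no other library above 0.0297. Each other library had a highest correlation of at least 0.971. The fit without replicate 2 held 29 libraries, leaving out replicate 2 at 6 h of all 3 siRNAs. The other groups share the estimate of spread. The standard error is the absolute log2 fold change over the square root of F. CPM values are TMM-scaled from the fit of 35 libraries, and ratios within a replicate used a prior count of 2.

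Members and gene lists were chosen with earlier results of these data known. The genes named are up to 12 per direction with the largest fold change and at least 5 CPM, up to 4 of each list by smallest p and members called against their list, up to 8 per direction for the difference between times, and ATF4 and ATF6. Others were named after their values were seen, such as all called members of the ER lists, the 5 genes without overlap, genes with a promoter match, and TXNIP, ARRDC4 and SLC2A1 where not covered by that rule. Exon overlap was computed from GENCODE 29. Promoter sequences are from RefSeq (GRCh38.p14), matched by symbol. Scripts were tested on simulated data. Alternatives were DESeq2 1.42.0, other scalings, no filter, other sets of libraries, replicate blocks and each library left out.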

Additional observations from a re-analysis of the deposited data

Results flagged for a closer look

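The fold change of deprivation differed between 16 and 6 h for 883 genes without 6 h replicate 2 and for 1641 with all replicates, in the test of the difference itself (edgeR's quasi-likelihood test, adjusted p under 0.05). Of the genes chosen by the naming rule, 50 were among the 883, 34 with a higher and 16 with a lower value at 16 h, and 42 also passed with all replicates. The 2 fits share libraries, so passing in both is no independent support. With all replicates the inverted pair also enters the fold change at 6 h. The difference went from 1.42 to 2.86 for HSPA5, from 2.03 to 4.44 for DDIT3 and from 1.73 to 0.61 for OGA. Of the 50, 36 passed with only the siControl replicate 2 libraries left out, 35 whichever 1 library was left out, and 2 with the failed siATF4 library kept. Values in brackets are the fold change at 16 h minus that at 6 h, on the log2 scale.

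The genes with a higher value at 16 h in both fits were KLHDC7B (4.56), ADM2 (4.17), PRDM16 (4.04), CHAC1 (3.67), RPS6KA2 (3.51), LAMP3 (3.47), BEX4 (3.22), NIBAN1 (3.00), ULBP1 (2.99), ATF3 (2.70), SESN2 (2.39), SLC1A4 (2.15), GOT1 (1.90), MTHFD2 (1.56), GARS1 (1.49), HSPA5 (1.42), WARS1 (1.4), WIPI1 (1.33), VEGFA (1.30), ATF4 (1.20), AARS1 (1.19), HYOU1 (1.17), CEBPG (1.14), TNFRSF10B (1.10), MID1IP1 (1.01), SLC1A5 (0.99), DNAJB11 (0.70) and NARS1 (0.49). They include regulators downstream of ATF4, amino acid carriers and tRNA synthetases beside the chaperones HSPA5, HYOU1 and DNAJB11. Of the exon length of SLC1A5, 23.8% also belongs to genes on the other strand.

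The genes with a lower value in both fits were NCALD (-3.08), CLDN2 (-2.97), FAM111B (-2.79), SYT12 (-2.60), MCM10 (-2.25), CLSPN (-2.19), TCF19 (-2.16), WDR76 (-2.15), E2F2 (-1.81), AC018629.1 (-1.74), MCM5 (-1.60), MCM7 (-1.44), CCNA2 (-1.06) and FASN (-0.72). Replication factors such as MCM10, CLSPN, MCM5 and MCM7 are among them.

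The remaining genes passed only without 6 h replicate 2 and were DDIT3 (2.03), OGA (1.73), PPP1R15A (1.69), ASNS (1.02), DUSP5 (0.96), SRXN1 (0.57), ZNF165 (-1.36) and CDC6 (-1.58). For ZNF165 the difference with all replicates was 0.61, of opposite sign, and did not pass. Of the exon length of SRXN1, 85.0% also belongs to a gene on the same strand.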

How the results depend on the processing

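Size and calls of the response at 6 h rest on leaving out replicate 2, and the calls also on which other libraries estimate the spread; of 59 named genes called without it, none was reversed and none passed with all replicates. With all replicates the count of 0 became 3 with DESeq2 and stayed 0 in every edgeR fit that kept replicate 2 in both groups, except for 1 gene without replicate 1 at 6 h of all siRNAs. It was 0 without any single library of the 2 groups, and leaving out a replicate number at 6 h gave 0 to 554, the latter without replicate 2. Without replicate 2 the 554 genes became 947 with DESeq2, 61 with only the siControl replicate 2 libraries left out, 138 with only the 4 libraries compared, 4 with the failed siATF4 library kept and 0 with all replicates. Leaving out 1 of the 4 libraries gave 146 to 278, the lone library of its group being assumed to vary like the other groups.

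For the difference between times, all replicates gave 1641 genes, 25 with the failed library kept and 973 without a filter. Leaving out a library or a replicate number gave 883 to 1802, with 914 without 0 mM replicate 2 and 1090 without 25 mM replicate 2 at 6 h. Without 6 h replicate 2 there were 883 genes, against 1641 with it, 1493 with DESeq2, 1390 with only the 10 libraries compared and 7 with the failed library kept. Leaving out a library gave 461 to 843, with 461 without 25 mM replicate 1, 506 without 25 mM replicate 3 and 541 without 0 mM replicate 3 at 6 h. The difference for ZNF165 turned from -1.36 to 0.61 with all replicates.

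Same-numbered libraries of the 2 groups correlated at 0.396, -0.018 and 0.224 in their deviations from the group means. Libraries of different number correlated at -0.367 to 0.128. The inverted replicate 2 enters these means, so the check cannot decide whether the numbers mark pairs. The main fits did not take the numbers as pairs. With the replicate number as a block, 0 genes passed with all replicates and 1048 without replicate 2, and for the difference between times 2532 and 1790. With a block for each transfection the counts were 0, 566, 1782 and 1045. Other scalings gave 544 and 570 in place of 554. The causes of these shifts were not tested. Depth was not varied here; 2 libraries a group limit the precision.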
